A study of Mus musculus with 15 samples.

Results

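The genes described are Bsn, Pclo, Rims1, Stx1a, Snap25, Syt1, Syt5, Nlgn1, Nlgn2 and Shank1, 10 genes of the presynaptic release site, the neurexin-binding adhesion proteins and the postsynaptic scaffold. They were taken by name from the 19938 genes that had a probe set with a single gene symbol, and each of the 10 had exactly 1 such probe set. The tissue was the right hippocampus, taken at postnatal day 9 from 15 male C57BL/6 mice that formed 5 groups of 3. CC pups were untreated controls, MSS pups received mild stress with saline, MSM pups mild stress with morphine, SSS pups severe stress with saline and SSM pups severe stress with morphine. Treatment ran from postnatal day 5 to day 9 where birth is day 1, and no dam raised more than 7 pups. The sources used here give neither what each stress consisted of nor the dose of morphine. No sample label gives a pup's litter, so the tests weigh differences against the spread of these arrays only. The labels name no transgene or mutation, and all groups share the strain, sex and age.

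At a chemical synapse, vesicles filled with transmitter dock at the active zone, a protein mesh on the inner face of the presynaptic membrane. Bassoon (Bsn) and piccolo (Pclo) are giant scaffold proteins of that mesh, and RIM1 (Rims1) links docked vesicles to calcium channels. Syntaxin 1A (Stx1a) and SNAP-25 (Snap25) sit on the plasma membrane and form, with a vesicle protein, the SNARE complex that fuses the membranes, while synaptotagmins are vesicle proteins of which synaptotagmin 1 (Syt1) is the calcium sensor for fast release. Neuroligins (Nlgn1, Nlgn2) reach across the cleft from the postsynaptic side to bind neurexins, and SHANK1 (Shank1) is a scaffold beneath excitatory synapses. The second postnatal week is a period of dense synapse formation in the rodent hippocampus.

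The promoter windows of the 3 active zone scaffolds are shown because Pclo followed both of the others from array to array, as given further on. Each window runs 5′ to 3′ on the strand of the gene, from 250 bases before to 50 bases after the annotated start, in RefSeq's build GRCm38.p6. Capitals mark matches on either strand to 4 motifs searched by their letters: the GC box GGGCGG, the cAMP response element core TGACG, the TATA box TATAAA and the NRF1 core CGCATGCG.
Bsn, chr9:108190334-108190633, minus strand: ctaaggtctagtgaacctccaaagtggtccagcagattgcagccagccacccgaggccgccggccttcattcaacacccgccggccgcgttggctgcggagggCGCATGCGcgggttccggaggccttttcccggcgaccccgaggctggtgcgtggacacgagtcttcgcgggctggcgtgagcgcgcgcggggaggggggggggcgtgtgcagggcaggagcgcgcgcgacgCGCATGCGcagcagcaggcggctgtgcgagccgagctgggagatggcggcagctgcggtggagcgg
Pclo, chr5:14514668-14514967, plus strand: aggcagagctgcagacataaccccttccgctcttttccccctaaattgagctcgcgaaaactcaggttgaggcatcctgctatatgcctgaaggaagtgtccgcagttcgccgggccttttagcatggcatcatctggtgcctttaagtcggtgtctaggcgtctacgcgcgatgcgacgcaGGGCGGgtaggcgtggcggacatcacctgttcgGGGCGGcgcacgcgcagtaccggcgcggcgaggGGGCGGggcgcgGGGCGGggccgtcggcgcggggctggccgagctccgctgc
Rims1, chr1:22806109-22806408, minus strand: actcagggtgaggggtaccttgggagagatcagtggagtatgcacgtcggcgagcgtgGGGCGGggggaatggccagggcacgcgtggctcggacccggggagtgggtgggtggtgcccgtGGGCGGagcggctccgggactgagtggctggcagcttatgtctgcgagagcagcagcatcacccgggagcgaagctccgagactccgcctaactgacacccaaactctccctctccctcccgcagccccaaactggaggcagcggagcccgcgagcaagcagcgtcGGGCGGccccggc
The Bsn window held 38 CpG pairs and 72.3% G or C, the Pclo window 35 and 66.0%, and the Rims1 window 26 and 69.3%. The median of all 32851 windows of this length was 7 CpG pairs and 52.7%. Pclo had 4 GC boxes and Rims1 3, a motif found in 35.7% of all windows, whereas Bsn had none. Bsn instead had 2 copies of the NRF1 core, which 1.9% of windows hold. Neither TATAAA, in 13.6% of windows, nor TGACG, in 20.8%, was present in these 3 windows. Windows were available for 7 of the 10 genes, and none for Snap25, Syt5 and Shank1. Of those not shown, the Nlgn2 window (26 CpG pairs, 68.7%) and the Stx1a window (19, 66.3%) each held 3 GC boxes and 1 TGACG. The 2 Syt1 windows held 1 and 0 GC boxes, and both Nlgn1 windows held none of the motifs. A match is a string of letters and says nothing of binding.

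Values are log2 intensities, on which a difference of 1 is a doubling, and differences are given as the first group minus the second. The intensity of one gene is not set against that of another, because probe sets differ in brightness. The median gene read 6.39 on SSM replicate 3 and 6.22 to 6.27 on each of the other 14 arrays. The shares of all genes given for SSM comparisons move with that array: in SSM against SSS, 74.0% of genes were higher with it and 50.5% without it, and in SSM against MSM 73.6% and 52.9%. Markers of neurons were high on every array, with means between 10.71 and 10.89. Markers of hippocampal excitatory neurons had means between 8.55 and 8.92 on 14 arrays and 7.75 on MSM replicate 3, where the mean of thalamus markers was 8.59 against 6.97 to 7.43 elsewhere. The mean of striatum markers was 9.93 on SSM replicate 1, 8.57 on CC replicate 1 and 8.02 on MSM replicate 2, against 6.57 to 7.25 on the other arrays. Myelin markers were also highest on SSM replicate 1 (8.40) and MSM replicate 3 (8.07), against 6.33 to 7.47 elsewhere. Choroid plexus markers were low on MSS replicates 1 and 2 and SSS replicate 2 (5.84 to 5.89) and lay between 7.09 and 8.16 elsewhere. Microglia markers were highest on SSM replicate 1 (7.21, against 6.80 to 6.98), and interneuron markers on MSM replicate 3 (9.05), CC replicate 1 (8.91) and SSM replicate 1 (8.81), against 8.45 to 8.77. All 6 microglia markers were higher in SSM than in SSS and than in MSM (medians 0.17 and 0.16). Of the 7 interneuron markers, 5 were higher and 2 lower in SSM than in SSS (median 0.31). Npy (0.54) and Sst (0.31) had the smallest p there, each with a limma adjusted p of 0.494. In SSM against MSM 6 of the 7 were higher, and Pvalb was lower (-0.95, SE 0.57). The part of these cell types and regions in the differences below was not tested. Member differences with an unadjusted p under 0.05 that involve SSM or MSM are also given without SSM replicate 1, MSM replicate 3 or both. The sample titles carry a number after SS of unstated meaning. It is 12 on all CC arrays and 11 on all mild stress arrays, 10 on SSS replicates 1 and 2, 9 on SSM replicates 2 and 3, and 8 on SSS replicate 3 and SSM replicate 1, so whatever it marks cannot be told apart from stress level and largely not from morphine under severe stress. In a whole hippocampus, fewer cells of a type and less RNA per cell cannot be told apart.

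None of the 10 genes passed the adjusted threshold (limma, Benjamini-Hochberg over 19938 genes, 0.05) in any of 11 comparisons or in the F-test over all 5 groups. Over all genes the share that passed was 0% in each of them except the averaged severity comparison, where 2 genes or 0.01% passed. Differences are therefore given as sizes with 95% confidence intervals and adjusted p-values, next to the share of all genes with an unadjusted p under 0.05 in the same direction. In the F-test 3 members had such a p, against 7.24% of all genes: Syt5 (adjusted p = 0.54), Pclo (adjusted p = 0.54) and Rims1 (adjusted p = 0.654). Shank1 was next (adjusted p = 0.721). Where groups are said not to overlap, this describes the arrays only. The share of all genes whose groups do not overlap was not counted, and groups of 3 arrays can separate without a difference in treatment.

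**Figure D1:**
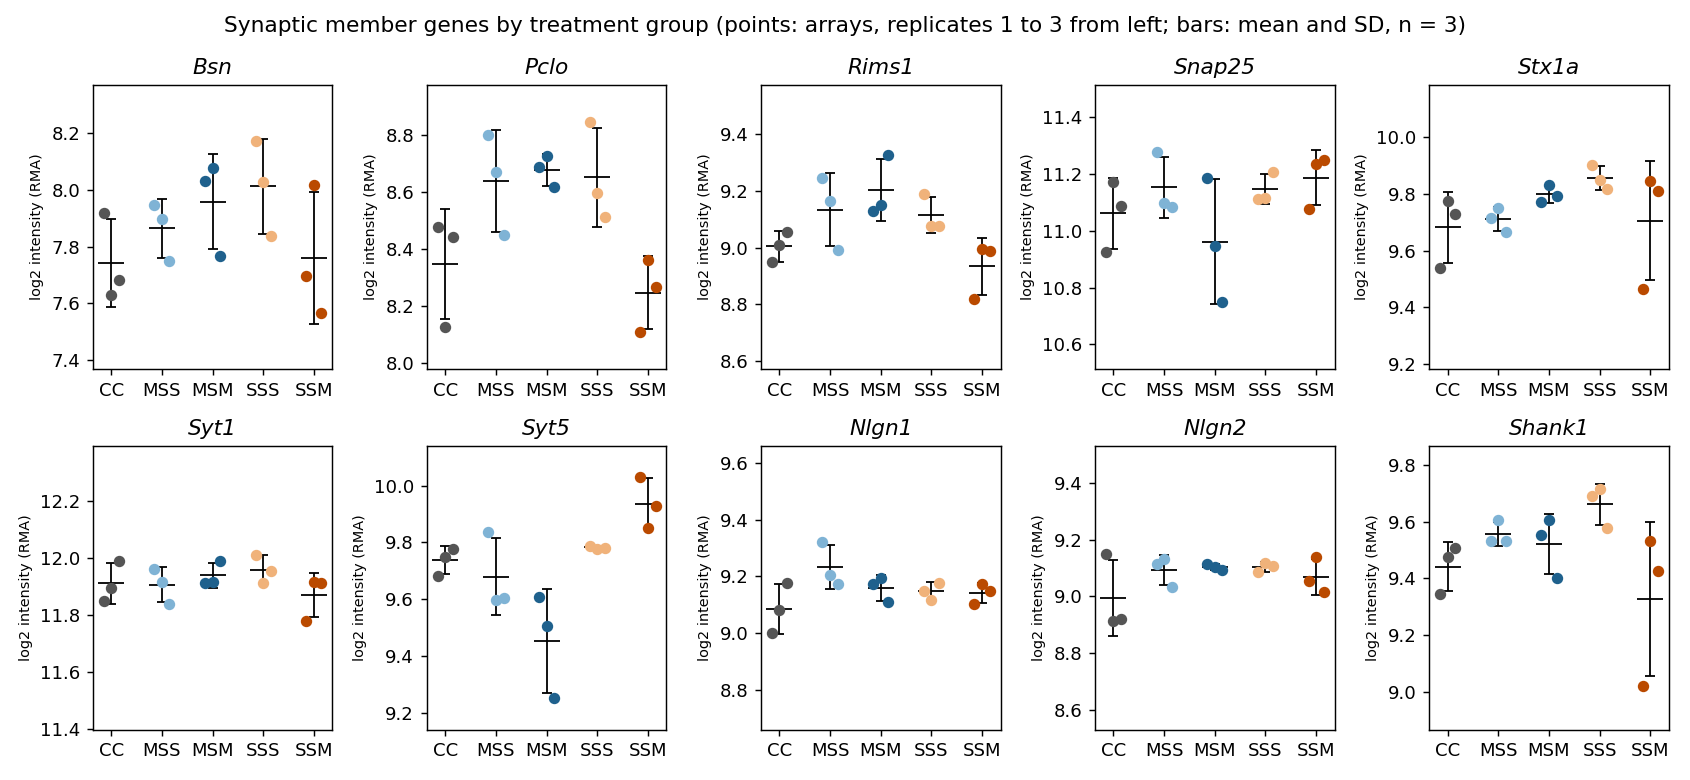
The log2 intensity of each gene on each array, by treatment group; points are arrays, the long bar is the mean and the whiskers are the SD of 3 arrays. Every panel spans the same height in log2 units. SSM lies lowest for Pclo and Rims1 and highest for Syt5, while Syt1, Nlgn1 and Nlgn2 differ little between groups.

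Among the active zone scaffolds, Pclo differed most between groups. On the 3 CC arrays Pclo read 8.48, 8.13 and 8.44, on MSS 8.80, 8.67 and 8.45, on MSM 8.69, 8.73 and 8.62, on SSS 8.85, 8.60 and 8.51, and on SSM 8.11, 8.36 and 8.27. The groups MSS, MSM and SSS thus formed a high level, with means from 8.64 to 8.68, and CC (8.35 ± 0.19, SD, n = 3) and SSM (8.25 ± 0.13, SD, n = 3) a low one. Neighbours within each level differed by less than their spread, and all 3 SSM arrays lay below all SSS and all MSM arrays. The CC and MSS arrays overlapped.

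Between the severe stress groups, Pclo was lower in SSM than in SSS by a log2 difference of -0.41 (95% interval -0.65 to -0.17, limma adjusted p = 0.494). Of all genes 0.662% were lower there at an unadjusted p under 0.05, and 3 of the 10 members were: Pclo, Rims1 and Shank1. The members were chosen with earlier results of these data known and varied together in part, so this count is a description only. Without SSM replicate 3 the share of all genes was 2.86%, and 3 members still had such a p. Against MSM the Pclo difference was -0.43 (-0.68 to -0.19, limma adjusted p = 0.177), with 2.26% of all genes lower at that level (4.36% without SSM replicate 3). With SSM replicate 1 and MSM replicate 3 left out, the differences were -0.34 against SSS and -0.39 against MSM, both still at an unadjusted p under 0.05. The morphine difference in Pclo was 0.04 under mild stress and -0.41 under severe stress, an interaction of -0.44 (-0.79 to -0.10, limma adjusted p = 0.959), where 0.386% of all genes had a negative interaction at that level (1.73% without SSM replicate 3). Without the 2 arrays the interaction was -0.41, also at an unadjusted p under 0.05. On the only pair of arrays from both severe groups with the same SS number, Pclo read 8.11 (SSM replicate 1) and 8.51 (SSS replicate 3). SSM replicate 1 was the lowest array in Pclo and the one with the highest striatum, myelin and microglia markers. In a single pair, morphine and the make-up of that array cannot be told apart.

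Against untreated pups, Pclo was higher by 0.29 in MSS (0.05 to 0.54), by 0.33 in MSM (0.09 to 0.57) and by 0.30 in SSS (0.06 to 0.55), with limma adjusted p = 1 in each. These folds of 1.22, 1.26 and 1.24 share the 3 CC arrays and are not independent. The shares of all genes higher at an unadjusted p under 0.05 were 1.06%, 1.58% and 0.933%. CC replicate 2 carried much of each difference: without it they were 0.18, 0.22 and 0.19, and none had an unadjusted p under 0.05. MSM against CC was 0.36 without MSM replicate 3. SSM differed from CC by -0.10 (-0.34 to 0.14), an interval that spans 0.

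Rims1 shared its lowest groups (SSM, then CC) and its highest (MSM) with Pclo, on a smaller scale. Its values were 8.95, 9.01 and 9.06 on CC, 9.25, 9.16 and 8.99 on MSS, 9.13, 9.15 and 9.33 on MSM, 9.19, 9.08 and 9.08 on SSS, and 8.82, 9.00 and 8.99 on SSM. SSM was again lowest with a mean of 8.94 ± 0.10 (SD, n = 3), with no overlap with SSS or MSM, and MSM was highest at 9.20 ± 0.11 (SD, n = 3). SSM was below MSM by 0.27 (difference -0.27, -0.43 to -0.10, limma adjusted p = 0.195) and below SSS by 0.18 (difference -0.18, -0.35 to -0.01, limma adjusted p = 0.517). The extremes of the 15 arrays were SSM replicate 1, with the highest striatum markers, at the bottom and MSM replicate 3, with the highest thalamus markers, at the top. Without them the differences were -0.15 and -0.12, and neither had an unadjusted p under 0.05. The part of other tissue in the Rims1 differences was not tested.

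MSM exceeded CC in Rims1 by 0.20 (0.03 to 0.36, limma adjusted p = 1), with no overlap between the groups, and by 0.14 without both arrays, where the unadjusted p was above 0.05. SSS arrays also lay above all CC arrays, by 0.11 (-0.06 to 0.28). The Rims1 interaction was -0.25 (-0.48 to -0.01, limma adjusted p = 0.959) with all arrays and -0.13, with an unadjusted p above 0.05, without both.

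Bsn read 7.92, 7.63 and 7.68 on CC, 7.95, 7.90 and 7.75 on MSS, 8.03, 8.08 and 7.77 on MSM, 8.17, 8.03 and 7.84 on SSS, and 7.70, 8.02 and 7.57 on SSM. The order of the means was CC, SSM, MSS, MSM and SSS, and every pair of groups overlapped. SDs were between 0.10 and 0.23, so neighbours in that order did not differ beyond their spread. Only SSS against CC had an unadjusted p under 0.05, with a difference of 0.27 (0.01 to 0.53, limma adjusted p = 1). That made Bsn and Pclo the 2 members past that level in SSS against CC, where 0.933% of all genes were higher. The Bsn difference kept an unadjusted p under 0.05 in 13 of 25 alternatives, and it was 0.19 without SSS replicate 1.

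The target SNAREs showed less. Stx1a values were 9.54, 9.78 and 9.73 on CC, 9.72, 9.75 and 9.67 on MSS, 9.77, 9.83 and 9.79 on MSM, 9.90, 9.85 and 9.82 on SSS, and 9.46, 9.84 and 9.81 on SSM. The SSS arrays lay above all CC and all MSS arrays, by 0.17 and 0.15, against an SE of 0.09. MSM also lay above MSS without overlap, by 0.09. All 3 differences had an unadjusted p above 0.05. SSM replicate 1 and CC replicate 1, the arrays with the highest striatum markers, were the lowest in Stx1a, while MSM replicate 2, the third in striatum markers, read 9.83. The part of other tissue in this was not tested.

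Snap25 read 10.93, 11.17 and 11.09 on CC, 11.28, 11.10 and 11.09 on MSS, 11.19, 10.95 and 10.75 on MSM, 11.11, 11.12 and 11.21 on SSS, and 11.08, 11.24 and 11.25 on SSM. The group means lay between 10.96 in MSM and 11.19 in SSM, and those 2 groups overlapped. Their difference was 0.23 (0.01 to 0.44, limma adjusted p = 0.328), in a comparison where 12.1% of all genes were higher at an unadjusted p under 0.05. MSM replicate 3 was the lowest of the 15 arrays, and without it the difference was 0.12, and without SSM replicate 1 as well 0.18, both with an unadjusted p above 0.05.

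Of the 2 synaptotagmins, Syt1 stayed between 11.78 and 12.01 on all 15 arrays, with group means from 11.87 in SSM to 11.96 in SSS, and no comparison reached an unadjusted p of 0.05. Syt5, a vesicle protein related to synaptotagmin 1, varied most of all members between SSM and MSM. Its values were 9.68, 9.75 and 9.78 on CC, 9.84, 9.60 and 9.61 on MSS, 9.61, 9.51 and 9.25 on MSM, 9.79, 9.78 and 9.78 on SSS, and 10.03, 9.85 and 9.93 on SSM. All 3 SSM arrays lay above every array of the other 4 groups. The order of the means was MSM, MSS, CC, SSS and SSM, and MSS, CC and SSS differed from one another by less than the largest of their SDs.

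Syt5 was higher in SSM than in MSM by 0.48 (0.30 to 0.67, limma adjusted p = 0.156), a 1.4-fold difference. In that comparison 12.1% of all genes were higher at an unadjusted p under 0.05, or 5.63% without SSM replicate 3. Averaged over drugs, severe stress exceeded mild stress by 0.29 (0.16 to 0.43, limma adjusted p = 0.0983), the smallest adjusted p of any member, where 9.28% of all genes were higher and 2.8% lower. Leaving out SSM replicate 1 and MSM replicate 3 gave 0.33 for SSM against MSM and 0.22 for the average, and quantile normalization on top of that 0.25 and 0.16, all at an unadjusted p under 0.05. The lowest Syt5 array was MSM replicate 3, the one with low hippocampal and high thalamus markers, and the highest was SSM replicate 1. The difference between MSM and SSM was 0.38 without MSM replicate 3 alone. Between the saline groups, SSS minus MSS in Syt5 was 0.10 (-0.08 to 0.29), an interval that spans 0.

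MSM was below CC in Syt5 with a difference of -0.28 (-0.47 to -0.10, limma adjusted p = 1), where 1.18% of all genes were lower, and with no overlap. Without both arrays this was -0.18, still at an unadjusted p under 0.05. MSM against MSS gave -0.22 (-0.41 to -0.04, limma adjusted p = 1), where 0.988% of all genes were lower, but the groups overlapped and the value without both arrays was -0.12, with an unadjusted p above 0.05. SSM was above CC by 0.20 (0.01 to 0.39, limma adjusted p = 0.552), in a comparison with 7.93% of all genes higher. With quantile normalization over all arrays that difference was 0.13, without both arrays 0.15, and with both changes 0.07, each with an unadjusted p above 0.05. Above all SSS arrays too, SSM exceeded SSS by 0.15 (-0.03 to 0.34). The interaction was 0.38 (0.12 to 0.64, limma adjusted p = 0.959), against 3.26% of all genes with a positive interaction at that level, and 0.23 without both arrays, where the unadjusted p was just above 0.05.

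The neuroligins differed little between groups. Nlgn2, which serves mainly inhibitory synapses, ranged from 8.91 to 9.15, the means lay between 8.99 in CC and 9.10 in SSS, and no comparison reached an unadjusted p of 0.05. Nlgn1, which serves mainly excitatory synapses, read 9.00, 9.08 and 9.18 on CC and 9.32, 9.20 and 9.17 on MSS, and lay between 9.10 and 9.20 on the other 9 arrays. MSS and CC overlapped, and their difference was 0.15 (0.02 to 0.27, limma adjusted p = 1). Nlgn1 and Pclo were the 2 members higher at an unadjusted p under 0.05 in MSS against CC, where 1.06% of all genes were. The Nlgn1 difference kept such a p in 21 of 25 alternatives. It lost it without CC replicate 1, CC replicate 2 or MSS replicate 1, and was 0.10 without MSS replicate 1.

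The postsynaptic scaffold gene Shank1 read 9.35, 9.47 and 9.51 on CC, 9.53, 9.61 and 9.53 on MSS, 9.55, 9.61 and 9.40 on MSM, 9.69, 9.71 and 9.58 on SSS, and 9.02, 9.53 and 9.43 on SSM. SSS was highest with a mean of 9.66 ± 0.07 (SD, n = 3), and SSM was lowest and most spread at 9.33 ± 0.27 (SD, n = 3). The 3 SSM arrays all lay below the 3 SSS arrays, with a difference of -0.33 (-0.56 to -0.11, limma adjusted p = 0.494). SSM replicate 1, with the highest striatum and myelin markers, was the lowest of the 15 arrays, and without it the difference was -0.18, still at an unadjusted p under 0.05. SSS and MSS lay above all CC arrays, by 0.22 (-0.01 to 0.44) and 0.12 (-0.11 to 0.34).

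**Figure D2:**
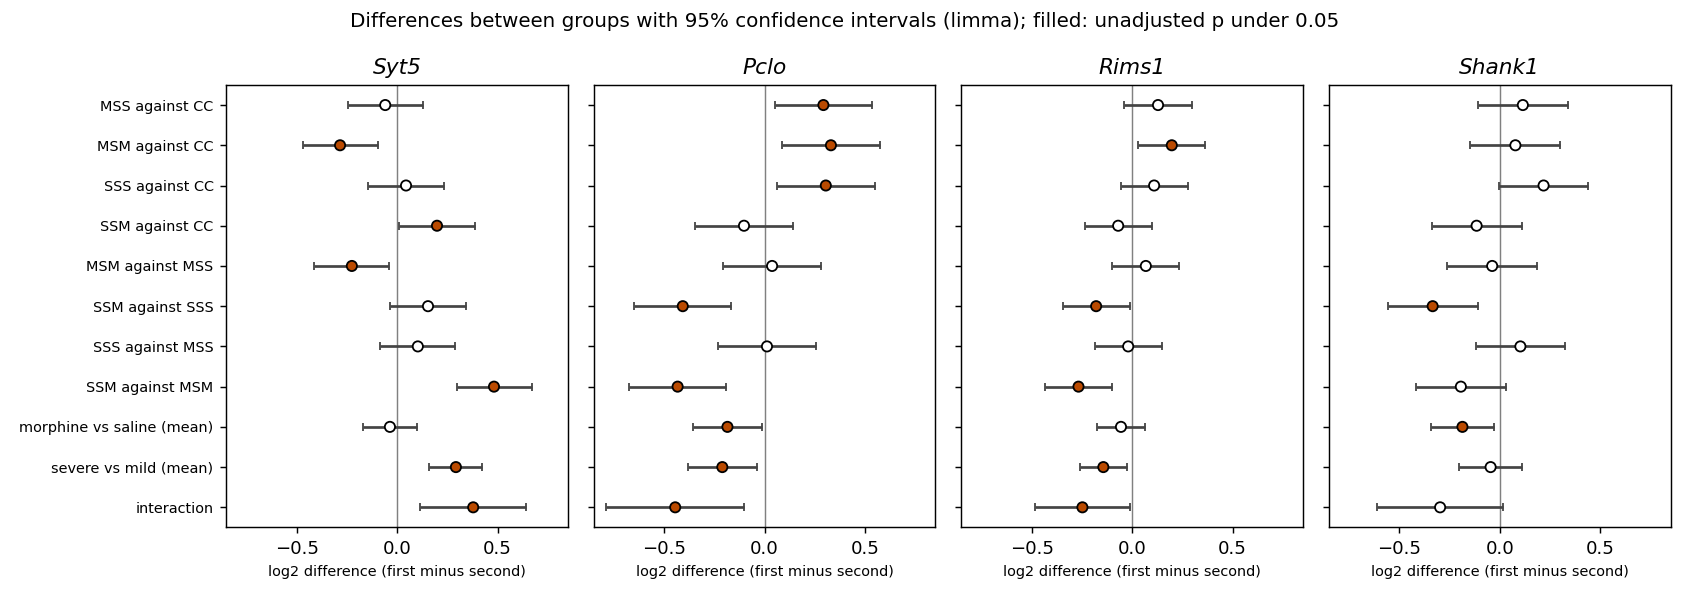
Log2 differences of Syt5, Pclo, Rims1 and Shank1 in the 11 comparisons, first group minus second, with 95% confidence intervals from limma; filled points have an unadjusted p under 0.05. Pclo and Rims1 lie left of 0 and Syt5 right of 0 in SSM against MSM, in the averaged severity comparison and in the interaction.

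Averaged over both stress levels, all 10 members were lower with morphine than with saline, with a median difference of -0.05. Of all genes 67.3% were higher, but 49.5% without SSM replicate 3 and 48.2% with quantile normalization. The count of members stayed at 10 with quantile normalization and with median centring and was 9 without SSM replicate 3. Without SSM replicate 1 and MSM replicate 3, 8 of the 10 were lower. The members were chosen with earlier results of these data known and varied together in part. Counts of their signs, here and in the next paragraph, are therefore a description only. Pclo (-0.18, -0.36 to -0.01) and Shank1 (-0.19, -0.34 to -0.03) had an unadjusted p under 0.05, against 0.597% of all genes lower (2.93% without SSM replicate 3), and both had a limma adjusted p of 0.649. Without both arrays neither did: the differences were -0.14 and -0.08. Averaged over drugs, Pclo (-0.21, -0.38 to -0.04, limma adjusted p = 0.325) and Rims1 (-0.14, -0.26 to -0.03, adjusted p = 0.332) were lower under severe than mild stress and Syt5 was higher. Of all genes 2.8% were lower there at an unadjusted p under 0.05, or 4.68% without SSM replicate 3. Without both arrays Pclo was at -0.19 and Rims1 at -0.08, the latter with an unadjusted p above 0.05. These averages came mostly from the morphine groups. Between the saline groups, SSS minus MSS was 0.01 for Pclo (-0.23 to 0.25), -0.02 for Rims1 (-0.19 to 0.15) and 0.10 for Syt5 (-0.08 to 0.29). In SSS against MSS, 7 of 10 were higher in SSS, Stx1a without overlap, and none had an unadjusted p under 0.05, against 2.85% of all genes in either direction.

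By their signs, all 10 members were higher in SSS than in CC (median 0.11), 8 in MSS (0.11) and 8 in MSM (0.09), while the medians of all genes in these comparisons lay within 0.01 of 0. In SSM against CC the count was 6 of 10 (median 0.02), and 76.9% of all genes were higher. That comparison moved with the scaling. With quantile normalization 3 of 10 members were higher and their median was -0.04, while the median of all genes went from 0.06 to 0.00. In SSM against SSS 8 of 10 members were lower (median -0.12), and 8 also without SSM replicate 3 (median -0.13), where the median of all genes was 0.00 against 0.06 with it. After quantile normalization 9 were lower and 6 were lower at an unadjusted p under 0.05, against 4.06% of all genes. With SSM replicate 1 and MSM replicate 3 left out 7 were lower and 2 at that level, against 0.306% of all genes. The members' median was then -0.04, and 82.3% of all genes were higher (median 0.08), as SSM replicate 3 weighs more there. With quantile normalization on top, 3 members were lower at that level, against 3.49% of all genes. The members' median was -0.10 in that setting.

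**Figure D3:**
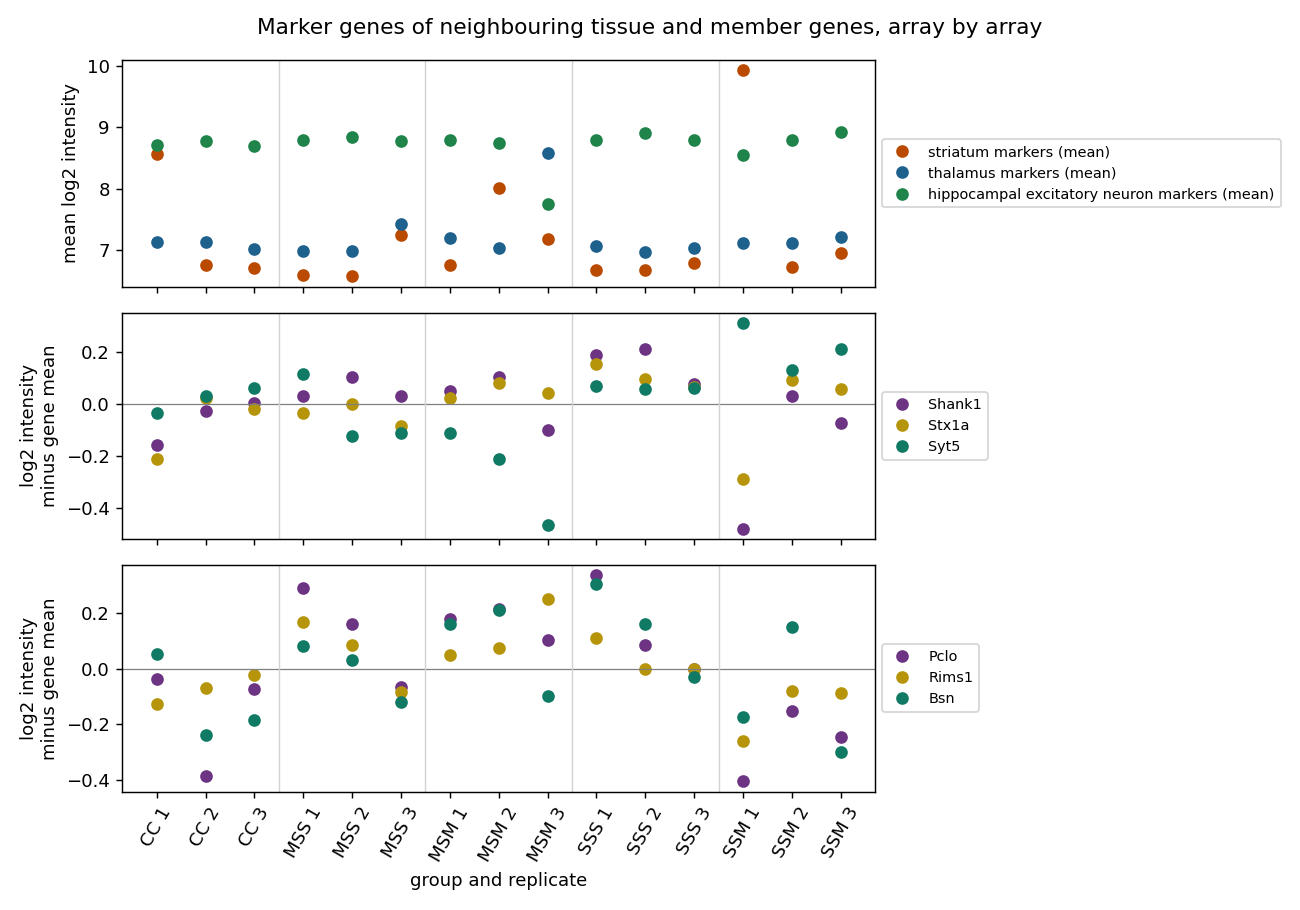
Top, mean log2 intensity of striatum, thalamus and hippocampal excitatory neuron markers on each array. Middle and bottom, log2 intensity of Shank1, Stx1a and Syt5 and of Pclo, Rims1 and Bsn, each minus its mean over 15 arrays. SSM replicate 1 holds the highest striatum mean (9.93) and the lowest Shank1, Stx1a, Pclo and Rims1, and MSM replicate 3 holds the highest thalamus mean (8.59) and the lowest Syt5.

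The members varied together in part. Of 45 pairs, 33 had a positive Pearson correlation over the 15 arrays (median r = 0.33), and 9 had a permutation p under 0.05 after Benjamini-Hochberg adjustment over the 45. Pclo and Rims1 had r = 0.80 and Spearman's rho = 0.84 (permutation p = 0.00035 and 0.00019, adjusted 0.0093 and 0.00855). Without the 2 arrays farthest from the median of Pclo, r was 0.76, and after subtracting group means it was 0.53. Bsn and Pclo had r = 0.76 and rho = 0.78 (permutation p = 0.00119 and 0.00105, adjusted 0.0134 and 0.016), r = 0.68 without the 2 farthest arrays and 0.71 within groups. Bsn and Rims1 had r = 0.41 and rho = 0.50 (permutation p = 0.13 and 0.0594, adjusted 0.273 and 0.223).

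Rims1 and Syt1 had r = 0.80 and rho = 0.78 (permutation p = 0.00045 and 0.00107, adjusted 0.0093 and 0.016). The r was 0.63 without the 2 farthest arrays, which were MSM replicate 3 and SSM replicate 1, and 0.91 within groups with those arrays included. Stx1a and Shank1 had r = 0.82 and rho = 0.65 (permutation p = 0.00062 and 0.0108, adjusted 0.0093 and 0.0811), but r was 0.43 without CC replicate 1 and SSM replicate 1, so the size of this relation rests on those arrays. It was 0.89 within groups, with those arrays included, and 0.72 without SSM replicate 1 and MSM replicate 3. Snap25 and Syt5 had r = 0.73 and rho = 0.59 (permutation p = 0.00297 and 0.0239, adjusted 0.0191 and 0.12), with 0.48 without the 2 farthest arrays. The single negative relation among the 9 was Rims1 with Syt5 (r = -0.66, rho = -0.42, permutation p = 0.00863 and 0.118, adjusted 0.0431 and 0.294), which was -0.18 without MSM replicate 3 and SSM replicate 1 and thus rests on them. The other 3 of the 9 were Stx1a with Syt1 (r = 0.75, 0.39 without the 2 farthest arrays), Bsn with Nlgn2 (0.71 and 0.79) and Pclo with Shank1 (0.66 and 0.52). All pairs share the same arrays, so tissue composition and signal level are common to them.

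**Figure D4:**
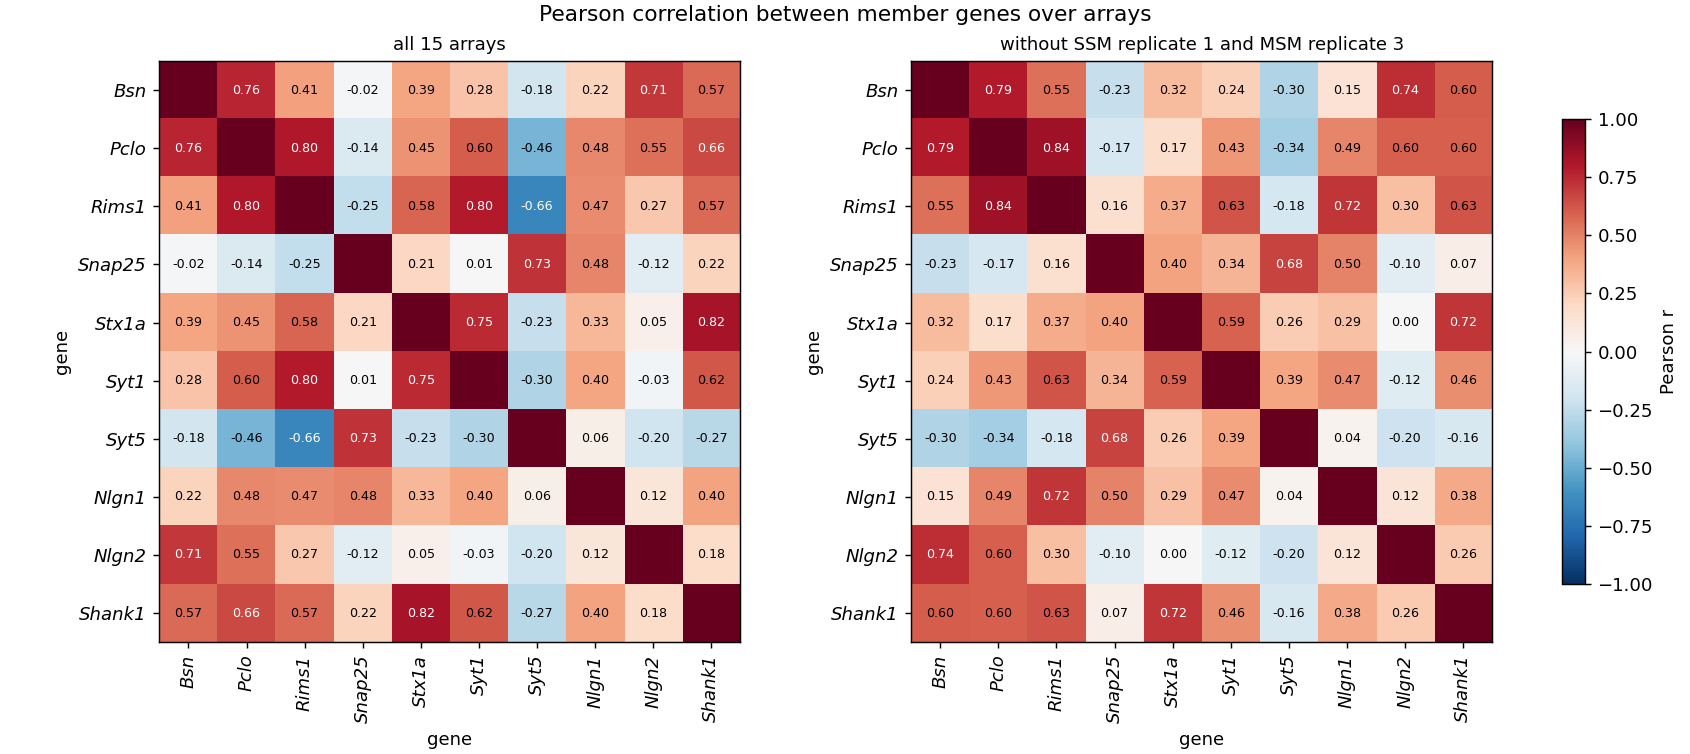
Pearson correlation of log2 intensity between the 10 genes, over all 15 arrays (left) and without SSM replicate 1 and MSM replicate 3 (right); the colour runs from -1 to 1. Pclo correlates with Rims1 at 0.80 and 0.84 in the 2 panels and with Bsn at 0.76 and 0.79, while the negative value of Rims1 with Syt5 goes from -0.66 to -0.18.

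Over all 19938 genes, those most like each member were found from group-centred values on the 15 arrays. For Pclo these were Prss8 (r = 0.90), Gbf1 (0.85) and Ino80d (0.84), for Bsn Thoc2l (0.92), Htt (0.91) and Zzef1 (0.90), and for Rims1 Pcdh9 (0.94), Cntnap4 (0.94) and Clgn (0.93). For Syt5 they were Nrde2 (0.95), Ripor2 (0.94) and Sirpa (0.93), and for Shank1 Arhgap23 (0.97), Rhou (0.95) and Shtn1 (0.95). Rhou (0.94) was also among the 3 of Stx1a, after Dtx4 (0.96) and Atcay (0.94). For Syt1 they were Adcyap1 (0.95), Igsf21 (0.94) and Cemip (0.94), for Snap25 Sec24d (0.96), Tie1 (0.96) and Snrk (0.95), for Nlgn1 Stam2 (0.93), Ppp1r16a (0.92) and Snx25 (0.92), and for Nlgn2 Dync1h1 (0.90), Mdn1 (0.87) and Gstz1 (0.87). None of these is a member or a companion listed here. They were picked as the highest of a very large number of values, after predicted genes, clones, olfactory receptors and small RNAs were passed over, and are given as a description. Prss8 and Thoc2l had mean log2 intensities of 4.6 and 5.36, below the median over all genes of 6.25.

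The same machinery was followed through 83 companion genes, of 90 listed: 19 of the active zone, 10 of the SNARE machinery, 25 of synaptic vesicles, 15 postsynaptic scaffolds and 14 adhesion genes. No companion passed the adjusted threshold in any comparison. In SSM against MSM, 5 of 19 active zone genes were higher and 14 lower (median -0.07), against a median over all genes of 0.06. Without SSM replicate 3 the median over all genes was 0.01, and that of the active zone genes was not computed. The calcium channel genes Cacna1b (-0.24, SE 0.08, limma adjusted p = 0.229) and Cacna1a (-0.15, SE 0.06, adjusted 0.296), whose products carry the calcium entry that triggers release, had the smallest p of those that were lower, and Rab3b, a vesicle-bound GTPase, was higher by 0.29 (SE 0.12, adjusted 0.301). Of the vesicle genes 21 of 25 were higher (median 0.13), where 73.6% of all genes were, with Doc2b, a calcium-binding vesicle protein (0.33, SE 0.10, adjusted 0.202), and Syp, synaptophysin (0.14, SE 0.06, adjusted 0.289). Of the SNARE genes 8 of 10 were higher (median 0.10). Of the scaffolds 9 of 15 were higher (median 0.06), with Dlg3 at 0.26 (SE 0.09, adjusted 0.254), and of the adhesion genes 9 of 14 (median 0.08).

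At an unadjusted p under 0.05, 10 of the 83 companions were higher in SSM than in MSM and 2 were lower, shares near the 12.1% and 2.26% of all genes. After quantile normalization these were 3 and 9, without SSM replicate 3 they were 3 and 3, and without SSM replicate 1 and MSM replicate 3 12 and 0, so the balance of directions depended on scaling and on those arrays. In SSM against SSS, 12 of 19 active zone genes were lower (median -0.07), among them Cacna1a (-0.17, SE 0.06, limma adjusted p = 0.494) and Cacna1b (-0.20, SE 0.08, adjusted 0.503). The 25 vesicle genes were divided there, 16 higher and 9 lower (median 0.01). Against CC, the active zone companions were mostly higher in MSS (15 of 19, median 0.04) and MSM (16 of 19, median 0.02). In SSS 12 of 19 were higher (median 0.05) and in SSM 8 of 19 (median -0.01). The vesicle genes were mostly lower in MSS and in MSM, with 8 of 25 higher in each. Of the 10 SNARE genes 4 were higher in MSS and 3 in MSM. Of all 83 companions 43 were higher in MSS and 38 in MSM, where 48.6% and 49.3% of all genes were. In SSS and SSM 58 and 59 of the 83 were higher, where 52.7% and 76.9% of all genes were.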

How the data were processed

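The values are log2 intensities from Affymetrix Mouse Gene 1.0 ST arrays deposited by the authors for 35557 probe sets on 15 arrays, made with RMA per the submitters' processing notes (software and version not given in the sources used here). RMA corrects background, normalizes and summarises probes on the log2 scale. Symbols came from the platform annotation, which can be old: 21789 probe sets carried 1 symbol, 1621 several and 12147 none, and the brightest single-symbol probe set was kept for each of 19938 genes. The number of arrays limits the precision.

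The linear models used limma 3.58.1 and R 4.3.3 (a mean per group on all 15 arrays, 10 residual and 4.61 prior degrees of freedom), two-sided, with Benjamini-Hochberg adjustment over all genes of a comparison. The script was tested on simulated data. The members and gene lists were chosen with earlier results of these data known. All 10 members are named; differences are described where the unadjusted p was under 0.05 or the groups did not overlap. Of the companion lists, counts, medians and at most 4 genes by smallest p are given, and for each member the 3 genes with the highest group-centred correlation, passing over predicted genes, clones, olfactory receptors and small RNAs. Markers of 10 cell types or regions (61 of 65 genes measured) were averaged per array. Permutation p-values of correlations used 100000 resamples. Sample titles carry a number after H and one after SS of unstated meaning; same H numbers did not deviate together between CC and MSM (correlations of -0.39, -0.07 and -0.16). Alternatives were other normalizations, filters, weights, blocks and left-out arrays.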

Additional observations from a re-analysis of the deposited data

How the results depend on the processing

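The 24 member differences with an unadjusted p under 0.05 were recomputed under quantile normalization, median centring, an intensity trend, array weights, a mean of all probe sets, genes above the median level alone, the compared groups alone, the SS number as a random block, each array left out, and SSM replicate 1 with MSM replicate 3 left out with and without quantile normalization, 603 values in all. Counts at an unadjusted p were added after seeing the data, as were the correlations without SSM replicate 1 and MSM replicate 3 and within groups. The direction was kept in 603 of 603 and an unadjusted p under 0.05 in 511. Differences that kept it in every alternative were Pclo in SSM against SSS, SSM against MSM and the interaction, Shank1 in SSM against SSS, and Syt5 in MSM against CC, SSM against MSM and severe against mild stress. Many alternatives left a member's difference itself unchanged by design and altered only its error. These were left-out arrays of groups not compared, the intensity trend, the filter by level and the compared groups alone. The mean of all probe sets also left it unchanged, as each member had 1 probe set. So did the SS random block for differences among CC, MSS and MSM, where each group carries a single SS number. The counts of 603 and 511 are therefore no tally of independent trials. None of the 603 passed the adjusted threshold, and the smallest adjusted p was 0.0623, for Syt5 in severe against mild stress with array weights. The number of members past that threshold was 0 in every comparison under each alternative, also with any replicate left out. With the H number of the titles as a replicate block (CC and MSM only), 0 members passed in MSM against CC. Pclo, Rims1 and Syt5 differed by 0.33, 0.20 and -0.28 there, as without the block. CC and MSM hold the same H numbers, so by design this block altered only the error. The SS random block had a consensus correlation of 0.065. Over all genes, differences between 2 groups had a median SE of 0.0805, which limits what 3 arrays a group can show.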
